A study of Mus musculus with 2 samples.

Results

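Genes of the muscle atrophy programme were compared between skeletal muscle of mice null for Jhdm2a and skeletal muscle of wild-type mice. The set holds 10 named genes: the ubiquitin ligase genes Fbxo32, Trim63, Fbxo30 and Fbxo21, the transcription factors Foxo1 and Foxo3, the growth inhibitor Mstn (myostatin), and Eif4ebp1, Bnip3 and Gadd45a. Its members were taken by symbol, using every probe set annotated to exactly 1 of these symbols. Of the 10, 9 had such a probe set, 22 probe sets in all, out of 18193 genes and 34945 probe sets with 1 symbol. Mstn had no probe set annotated to it in the table used here and is not analysed further. Total RNA was hybridised to 2 Affymetrix Mouse Genome 430 2 arrays, 1 for each genotype, and each array carried RNA combined from 3 mice. All mice were males of 3 months from 129 embryonic stem cells, with 4 generations of backcrossing onto C57BL/6, so both genotypes share that mixed background. Jhdm2a, now Kdm3a, encodes a demethylase of lysine 9 of histone H3. The labels do not say which muscle was taken or how the allele was made. The study asks which muscle transcripts differ when the enzyme is lost.

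Muscle fibres lose mass when protein breakdown outpaces synthesis. Wasting signals let FoxO transcription factors, which the kinase Akt otherwise holds out of the nucleus, switch on ligase genes whose products tag muscle proteins with ubiquitin for the proteasome, together with genes of autophagy. Myostatin, a secreted relative of TGF-beta, restrains muscle growth through activin receptors and SMAD proteins, while the mTOR pathway raises translation, in part by disabling the eIF4E-binding proteins.

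With 1 array for each genotype there is no replicate and no test between genotypes. "Higher" and "lower" describe these 2 arrays only, and their number limits the precision. Signals are MAS5 values on a linear scale, and ratios put the null-labelled array over the wild-type-labelled one. A probe set was called measured when both arrays read more than a floor of 182, and genes were valued at the average of the log2 ratios over such probe sets. Measured probe sets of the same gene differed with a pooled SD of 0.29 in log2 ratio over 3719 genes, and the log2 ratios of 18 hybridisation controls averaged -0.02 ± 0.09 (SD). The first value is a spread between probe sets and the second a spread between controls, both within these 2 arrays. Neither comes from repeat hybridisations, and neither covers variation between mice. The Kdm3a probe set, 1426810_at, read 488 in the null-labelled pool against 406 in the wild-type-labelled pool, so it was not lower under the null label. Its place relative to the disruption is not known here, and a probe set outside the deleted part checks nothing. Every direction below therefore rests on the labels.

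The atrophy genes were close to equal on the 2 arrays, apart from Fbxo32, Eif4ebp1 and Fbxo21. The gene values of the 9 measured genes had a median log2 ratio of 0.06, against 0.04 over all 9696 measured genes. Of the 9 genes, 5 had values above 0 and 4 below, and 5 lay within 0.1 of 0. Over all measured genes 55.7% were above 0. The median of the 9 turned to -0.0082 after quantile normalization, -0.04 after loess and -0.00066 from the brightest probe sets, so it has no settled sign. At the 1.5-fold rule 1 of the 9 was lower, Fbxo21, and 6.34% of all measured genes were lower by that rule. None of the 9 was higher by 1.5-fold, and 3.38% of all measured genes were. Among the 20 measured probe sets of these genes, 3 were at least 1.5-fold lower and 2 at least 1.5-fold higher. Over all 15403 measured probe sets with 1 symbol, 6.73% were lower and 5.31% higher by that rule. No atrophy gene with several measured probe sets passed 1.5-fold in every one of them. Across all 3719 genes with several, 2.96% were lower and 1.13% higher in every probe set.

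**Figure D1:**
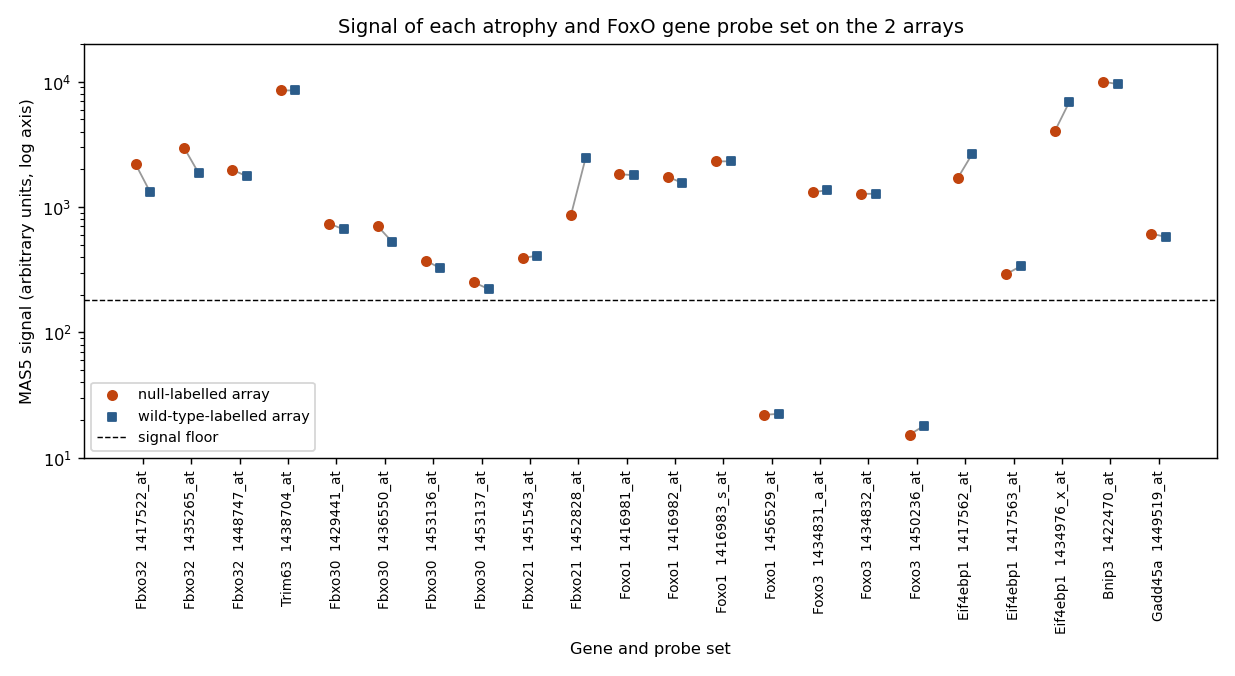
MAS5 signal (log axis, arbitrary units) of the 22 probe sets of the 9 genes, with the null-labelled array as circles left of the wild-type-labelled array as squares; the dashed line is the floor of 182. Most pairs are level. Fbxo32 slopes down toward wild type in 3 of 3 probe sets, Eif4ebp1 slopes up in 3 of 3, and 1 of the Fbxo21 probe sets is 2.82-fold lower in the null-labelled pool.

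Fbxo32 encodes atrogin-1, the substrate-recognising F-box subunit of a cullin ligase and a classic marker of muscle wasting. Its probe set 1417522_at read 2188 in the null-labelled pool against 1312 in the wild-type-labelled pool, 1.67-fold higher. Its probe set 1435265_at read 2972 in the null-labelled pool against 1867 in the wild-type-labelled pool, 1.59-fold higher. The third, 1448747_at, differed less, with 1983 in the null-labelled pool against 1757 in the wild-type-labelled pool, 1.13-fold higher. All 3 probe sets were thus higher in the null-labelled pool, by amounts that varied with the probe set. The first and the third were designed from the same sequence record in the platform annotation, so they are not independent readings. The gene value was 0.53 ± 0.31 (SD of 3 probe sets), 1.44-fold higher, which ranked 490 from the top among 9696 genes. That value is under 1.5-fold. Taking the brightest probe set or the median of the 3 instead gave 0.67, which is past it.

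Trim63 encodes MuRF1, a RING-finger ligase that acts on proteins of the sarcomere and is usually induced together with atrogin-1. Its 1 probe set, 1438704_at, read 8519 in the null-labelled pool against 8523 in the wild-type-labelled pool. The log2 ratio was -0.00066, beside 0.53 for Fbxo32. Its lowest value under the 10 alternative settings was -0.10, after loess.

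The promoter of Trim63 is shown because it holds a FoxO element next to a gene whose signal was level on the 2 arrays. The stretch runs from 250 bases before to 50 after the gene's start in RefSeq, at chr4:134314870-134315169 on the plus strand of GRCm38.p6, and is written 5′ to 3′ with the element in capitals.
Trim63: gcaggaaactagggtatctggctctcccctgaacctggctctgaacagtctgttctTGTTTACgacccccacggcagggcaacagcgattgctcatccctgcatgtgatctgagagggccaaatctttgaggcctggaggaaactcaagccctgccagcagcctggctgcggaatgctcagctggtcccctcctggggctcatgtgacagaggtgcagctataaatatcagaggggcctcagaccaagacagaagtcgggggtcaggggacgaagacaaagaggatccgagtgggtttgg
The motif searched was GTAAACA on both strands, and here it stands as its reverse complement TGTTTAC, beginning 194 bases before the start. It was present in 3.65% of 32851 promoters of that length, and in 1 of the 8 promoters of the 10 genes that the table holds. Fbxo32 and Eif4ebp1 were the genes without an entry. A match describes letters in this window and is not a measured binding site.

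Fbxo30 and Fbxo21 are F-box genes that were linked to atrophy after the first pair, and their gene values had opposite signs. Fbxo30 encodes MUSA1, which BMP signalling holds down in muscle. Its 4 probe sets were all slightly higher. Probe set 1429441_at read 739 in the null-labelled pool against 663 in the wild-type-labelled pool, and 1436550_at read 706 in the null-labelled pool against 528 in the wild-type-labelled pool. The dimmer pair, 1453136_at and 1453137_at, were 1.15-fold and 1.13-fold higher. Together they gave a gene value of 0.24 ± 0.12 (SD of 4 probe sets), 1.18-fold higher. Of all measured genes, 75.4% had a lower value.

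Fbxo21 encodes the F-box protein also called SMART in work on atrophy, and its 2 probe sets gave different answers. Probe set 1452828_at read 867 in the null-labelled pool against 2448 in the wild-type-labelled pool, 2.82-fold lower. Probe set 1451543_at read 392 in the null-labelled pool against 410 in the wild-type-labelled pool, 1.05-fold lower. The gene value of -0.78 ± 1.01 (SD of 2 probe sets) is therefore a mean of a large and a near-zero difference, and its position past 1.5-fold rests on 1452828_at alone. The 2 log2 ratios were 1.43 apart. Among 2425 genes with 2 measured probe sets, 11, or 0.454%, were at least that far apart with Fbxo21 included, and the median distance was 0.24. With the floor at the 75th percentile only 1452828_at was measured, and the value was -1.50.

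**Figure D2:**
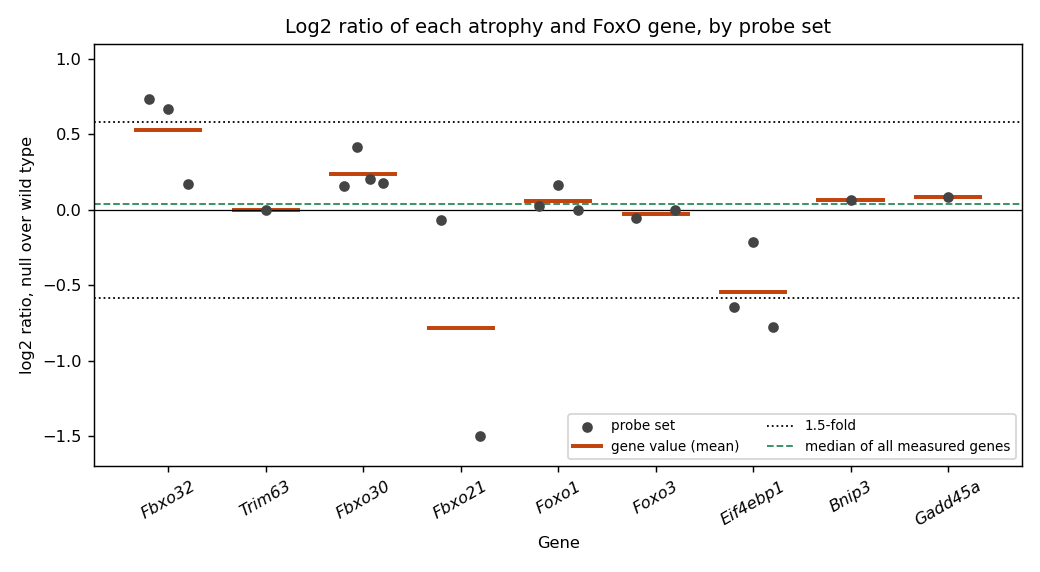
Log2 ratio, null over wild type, of every measured probe set (dots) of the 9 genes, with the gene value as a bar, 1.5-fold as dotted lines and the median of all measured genes, 0.04, as a dashed line. Fbxo21 at -0.78 is the 1 bar past a dotted line, and its dots stand at -0.06 and -1.50.

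**Figure D3:**
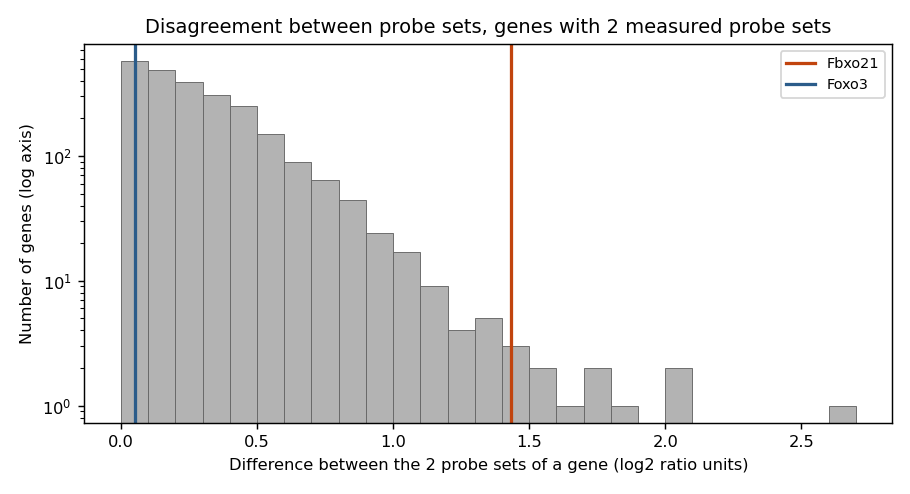
Histogram of the distance between the log2 ratios of the 2 measured probe sets of 2425 genes (x axis in log2 units, y axis the number of genes on a log scale). Fbxo21, at 1.43, stands in the far tail, and Foxo3, at 0.05, in the lowest bin.

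The FoxO transcription factors themselves had near-equal transcript signals. Foxo1 read 1828 in the null-labelled pool against 1795 in the wild-type-labelled pool with 1416981_at. With 1416982_at it read 1743 in the null-labelled pool against 1558 in the wild-type-labelled pool, and with 1416983_s_at 2313 in the null-labelled pool against 2317 in the wild-type-labelled pool. These 3 probe sets did not share a sign, and the gene value was 0.06 ± 0.09 (SD of 3 probe sets). Foxo3 read 1313 in the null-labelled pool against 1363 in the wild-type-labelled pool with 1434831_a_at, and 1274 in the null-labelled pool against 1277 in the wild-type-labelled pool with 1434832_at. Its gene value was -0.03 ± 0.04 (SD of 2 probe sets). A further probe set of each gene, 1456529_at and 1450236_at, lay below the floor on both arrays, at 22.0 and 22.4 for Foxo1 and at 15.3 and 18 for Foxo3, in each case the null-labelled array first. FoxO activity depends on phosphorylation and location, which transcript signals do not measure. Foxo1 was -0.0067 after loess, and so has no settled sign.

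Eif4ebp1 encodes 4E-BP1, which binds the cap-binding factor eIF4E and represses translation until mTOR phosphorylates it. FoxO raises its transcription in muscle. Probe set 1434976_x_at read 4011 in the null-labelled pool against 6865 in the wild-type-labelled pool, 1.71-fold lower. Probe set 1417562_at read 1715 in the null-labelled pool against 2674 in the wild-type-labelled pool, 1.56-fold lower. The dim probe set 1417563_at read 292 in the null-labelled pool against 338 in the wild-type-labelled pool, 1.16-fold lower. All 3 were lower in the null-labelled pool, and the gene value was -0.54 ± 0.29 (SD of 3 probe sets), 1.46-fold lower, with 7.20% of measured genes lower still. It crossed 1.5-fold at -0.59 with the median of all probe sets set to 0, at -0.61 after loess and at -0.78 from the brightest probe set. Without the x-type probe set, a kind that can match several transcripts, it was -0.43.

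Bnip3, a mitochondrial outer membrane protein of mitophagy that FoxO3 induces in muscle, read 10022 in the null-labelled pool against 9565 in the wild-type-labelled pool with 1422470_at, a log2 ratio of 0.07. Gadd45a, a stress-induced nuclear protein that promotes fibre atrophy after denervation, read 613 in the null-labelled pool against 578 in the wild-type-labelled pool with 1449519_at, a log2 ratio of 0.08. Each rests on 1 probe set and is smaller than the pooled SD of 0.29 between probe sets given above. Bnip3 was -0.01 after quantile normalization and -0.04 after loess, so its sign is not settled. In the RefSeq table on GRCm38.p6, Gadd45a lies on chromosome 6 as Kdm3a does. Between them lie 239 genes, of which 19 are protein-coding. The part of that position in its signal was not tested.

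The Bnip3 promoter is shown for its E-box palindrome, in capitals, in another gene whose signal was level. It spans chr7:138909457-138909756 on the minus strand of GRCm38.p6 and is written 5′ to 3′ on that strand.
Bnip3: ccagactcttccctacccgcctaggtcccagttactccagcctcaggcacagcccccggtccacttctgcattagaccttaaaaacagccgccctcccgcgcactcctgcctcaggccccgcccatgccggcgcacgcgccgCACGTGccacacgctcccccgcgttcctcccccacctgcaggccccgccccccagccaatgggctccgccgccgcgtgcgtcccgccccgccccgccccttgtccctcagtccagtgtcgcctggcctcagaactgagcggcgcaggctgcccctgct
The motif CACGTG, which reads the same on both strands, begins 108 bases before the start. It was present in 7.15% of all promoters in the table and in 1 of the 8 held for these genes.

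**Figure D4:**
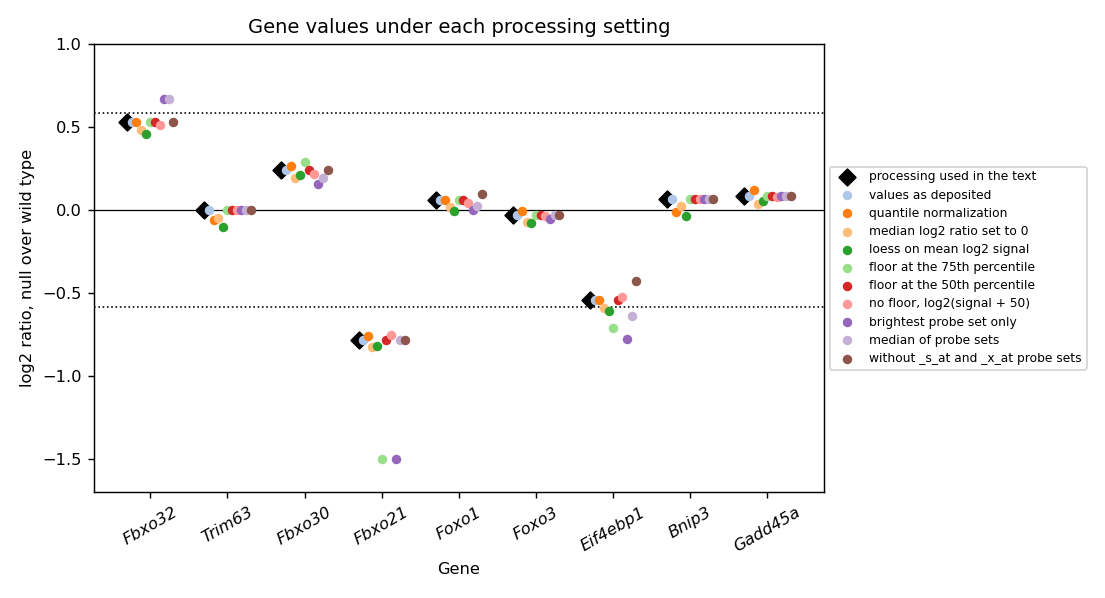
Log2 ratio, null over wild type, of the 9 genes under the processing used in the text (diamonds) and the 10 alternatives (circles), with 1.5-fold as dotted lines. Fbxo32 stays between 0.46 and 0.67, Eif4ebp1 between -0.78 and -0.43, and Fbxo21 between -1.50 and -0.75, while Trim63, Foxo1, Foxo3, Bnip3 and Gadd45a stay near 0.

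As groups, markers of fat and liver were much lower in the null-labelled pool. All 20 skeletal muscle fibre markers were above the floor on both arrays, with a summed signal of 284374 in the null-labelled pool against 257150 in the wild-type-labelled pool and a median log2 ratio of 0.16. Of 18 adipocyte markers with a probe set, 14 were above the floor in the null-labelled pool against 18 in the wild-type-labelled pool, and their summed signals were 16594 and 108647 in that order, 6.55-fold lower in the null-labelled pool. Elovl3, Lep, Otop1 and Pparg were the adipocyte markers below the floor there. All 14 adipocyte markers measured on both arrays were lower, with a median of -3.18. Ucp1, the uncoupling protein of brown fat, read 283 in the null-labelled pool against 14885 in the wild-type-labelled pool. Adipoq, the fat hormone adiponectin, read 1145 in the null-labelled pool against 11443 in the wild-type-labelled pool. Of 17 hepatocyte markers with a probe set, 2 in the null-labelled pool against 12 in the wild-type-labelled pool were above the floor, with summed signals of 3159 and 14651. Alb, the plasma protein albumin, read 361 in the null-labelled pool against 2635 in the wild-type-labelled pool, 7.29-fold lower. Summed signals, with the null-labelled array first, were 2129 and 4080 for cardiac markers and 8165 and 4350 for leukocyte markers. They were 14573 and 12726 for smooth muscle markers and 6360 and 4211 for erythroid markers. Of 11 cardiac markers with a probe set, only 2 in the null-labelled pool and 3 in the wild-type-labelled pool were above the floor. The 2 measured on both arrays were Gja1 at -1.10 and Myl4 at -0.28, so the cardiac sums rest on few genes. The higher leukocyte sum rested on the neutrophil genes S100a8 and S100a9. S100a8 read 2356 in the null-labelled pool against 92.5 in the wild-type-labelled pool, and S100a9 read 2161 in the null-labelled pool against 81.9 in the wild-type-labelled pool. The 7 leukocyte markers above the floor in both pools had a median of -0.18, with 0 at least 1.5-fold higher and 2 lower. By that rule 3.38% of all measured genes were higher and 6.34% lower. The 2 lower markers, Cd163 at -0.68 and Ighm at -0.84, each rested on 1 measured probe set. Ighm was -0.29 under an alternative. In pooled tissue, fewer cells of a type and less RNA per cell cannot be told apart. The part of fat and liver RNA in the lower Eif4ebp1 and Fbxo21 signals, or in the higher Fbxo32 signal, was not tested.

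The other ubiquitin ligases and their partners were mostly a little higher in the null-labelled pool, as were the muscle fibre markers. Of 24 genes, 19 were measured, 13 of these were above 0, and the median was 0.22, against 0.04 for all measured genes and 0.16 for the muscle fibre markers. Over all measured genes 55.7% were above 0, and 17 of the 20 muscle fibre markers were. The median of the ligase list stayed between 0.12 and 0.27 under the alternatives. By the 1.5-fold rule 1 was higher and 0 were lower, against 3.38% and 6.34% of all measured genes. The higher gene was Cul3, the scaffold of cullin ligases that use BTB proteins. It was higher in each of 5 probe sets, with a gene value of 0.75 ± 0.33 (SD of 5 probe sets). Its brightest probe set, 1422794_at, read 6811 in the null-labelled pool against 5356 in the wild-type-labelled pool, 1.27-fold higher, so the call ended when this probe set alone was used. Ube2b, a ubiquitin-conjugating enzyme, had 0.43, and Traf6, a ligase that activates NF-kappa-B signalling, had -0.55 from a probe set just above the floor (-0.59 to -0.30 under the alternatives). Trim54, a MuRF relative of Trim63 also known as MuRF3, read 7364 in the null-labelled pool against 6098 in the wild-type-labelled pool, a log2 ratio of 0.27 (0.17 to 0.27 under the alternatives), and Trim32 had -0.04. Trim55, the remaining MuRF gene, and Fbxo40 had no probe set annotated to that symbol alone, so neither was assessed.

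Proteasome genes differed by small amounts. All 32 measured genes of this list were within 1.5-fold, 28 were above 0, and the median was 0.16, between 0.06 and 0.18 under the alternatives. Over all measured genes 55.7% were above 0, and 17 of the 20 muscle fibre markers were, with a median of 0.16. The number of proteasome genes above 0 depended on the processing. It was 24 after quantile normalization, 22 with median centring and 18 after loess, and between 25 and 28 under the other alternatives. After loess 13 of the 20 muscle fibre markers were above 0. The 7 alpha ring subunits had a median of 0.32, between 0.11 and 0.32 under the alternatives, and the 11 non-ATPase subunits of the regulatory particle had 0.15. The 6 ATPase subunits had 0.11, and the 7 beta subunits, which carry the protease sites, had 0.07, which turned to -0.03 under an alternative. Psmd7 and Psmc6, both of the regulatory particle, had 0.56 and 0.53, with Psmd7 at 0.08 when no floor was set, and Psmd13 was lowest at -0.19.

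**Figure D5:**
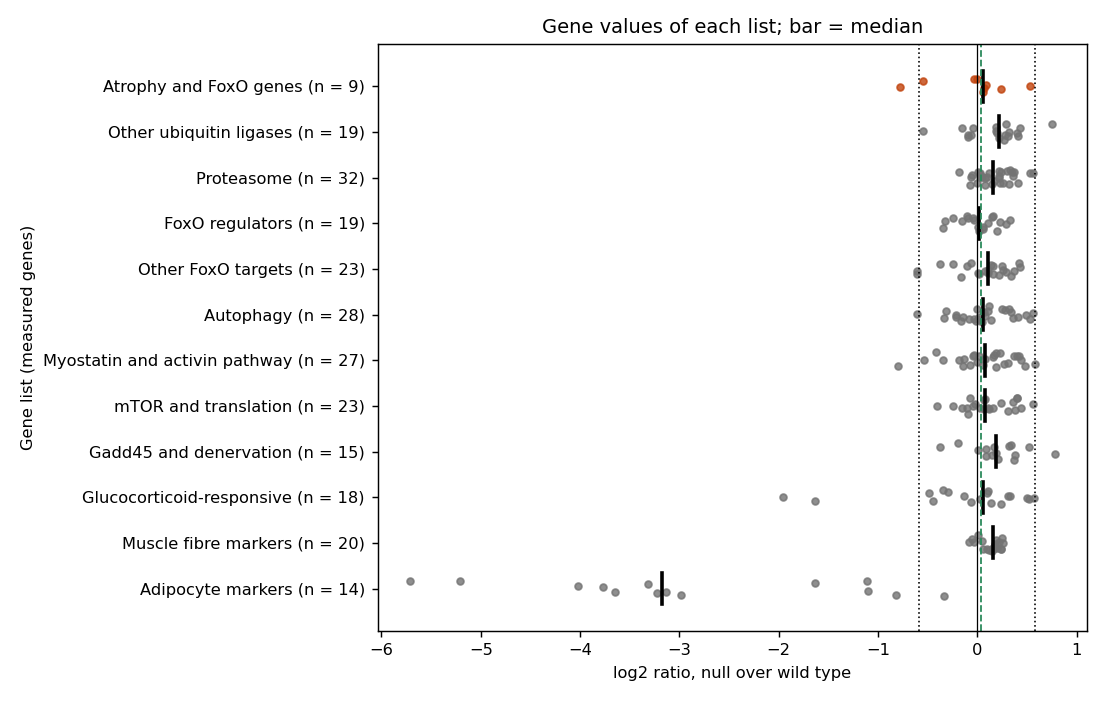
Log2 ratio, null over wild type, of each measured gene (dots) of 12 lists, with list medians as black bars, 1.5-fold as dotted lines and the median of all measured genes as a dashed line. The medians of the other 11 lists lie between 0.02 and 0.22, and adipocyte markers, with a median of -3.18, stand apart.

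Upstream of the FoxO factors, 0 of 19 measured regulators were past 1.5-fold in either direction. Of all measured genes 3.38% were higher and 6.34% lower by that rule. The median of the regulators was 0.02. That median turned to -0.03 with all ratios centred on their median and to -0.04 after loess. Akt2, the insulin-responsive Akt kinase that inactivates FoxO, was lower in 3 of 3 probe sets with a mean of -0.33 (-0.54 to -0.22 under the alternatives), and Akt1 had 0.19 from probe sets of opposite sign and -0.20 from its brightest. Pik3r1, a regulatory subunit of PI3-kinase, had -0.34 (-0.39 to -0.22 under the alternatives), the kinase gene Sgk1 0.33 and the deacetylase gene Sirt2 0.29. Igf1, the growth factor that drives this pathway, had -0.15 from 4 probe sets of mixed sign. Foxo4 had 0.06, also with mixed signs, and -0.08 from its brightest probe set.

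Other genes that FoxO is reported to induce went both ways. Of 23 measured, 16 were above 0 with a median of 0.11 (0.05 to 0.12 under the alternatives). Over all measured genes 55.7% were above 0, and 17 of the 20 muscle fibre markers were. After loess 13 of the 23 were above 0, beside 4780 of all 9696 measured genes. At the 1.5-fold rule 0 of the 23 were higher and 2 were lower, beside 3.38% and 6.34% of all measured genes. Both lower genes were just past the rule. Cat, the peroxide-degrading enzyme catalase, read 5128 in the null-labelled pool against 8469 in the wild-type-labelled pool with 1416429_a_at, a log2 ratio of -0.72. Its other probe set had -0.49, inside 1.5-fold, and the gene value was -0.61 ± 0.16 (SD of 2 probe sets). Gabarapl1, an autophagosome protein, read 773 in the null-labelled pool against 1274 in the wild-type-labelled pool with 1416418_at, a log2 ratio of -0.72. Its other probe set had -0.49, inside 1.5-fold, and the gene value was -0.61 ± 0.16 (SD of 2 probe sets). That gene value ranged over -0.72 to -0.49 under the alternatives. It was inside 1.5-fold after quantile normalization, with no floor and from the brightest probe set of Gabarapl1. Adipocyte markers were lower on the same array, as given above, and their part in these values was not tested. Sesn1, a stress-induced inhibitor of mTOR signalling, had 0.42 (0.11 to 0.77 under the alternatives) and Cited2, a transcriptional coregulator, 0.37 (0.33 to 0.60), while Klf15, a glucocorticoid-responsive factor of muscle metabolism, had -0.06.

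The 28 measured genes of autophagy and mitophagy had a median of 0.06, with 17 above 0, 0 at least 1.5-fold higher and 1 lower, which was Gabarapl1 again. Over all measured genes the median was 0.04 and 55.7% were above 0, with 3.38% higher and 6.34% lower by that rule. The median of the autophagy list was -0.03 after loess. Fundc1, a mitophagy receptor like Bnip3, was higher in 3 of 3 probe sets with a mean of 0.56 (0.52 to 0.70 under the alternatives), and Bcl2, a survival protein that restrains autophagy, had 0.54 from 1 probe set of modest signal (0.23 to 0.61 under the alternatives). Bcl2l1, a related survival gene, had -0.33, with -0.64 from its brightest probe set and -0.18 when no floor was set.

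In the myostatin and activin pathway 27 of 31 genes were measured. Their median was 0.08 (0.02 to 0.15 under the alternatives), and 16 were above 0, beside 55.7% of all measured genes. By the 1.5-fold rule 0 were higher and 1 was lower, beside 3.38% and 6.34% of all measured genes. Smad7, an inhibitor of this signalling, was the lower gene at -0.80 ± 0.96 (SD of 2 probe sets), and -0.12 when its _x_at probe set was left out. That probe set 1443771_x_at read 295 in the null-labelled pool against 821 in the wild-type-labelled pool, whereas 1423389_at read 439 in the null-labelled pool against 477 in the wild-type-labelled pool. Among the receptors, Acvr2b, the main receptor of myostatin, read 430 in the null-labelled pool against 624 in the wild-type-labelled pool with 1419140_at, 1.45-fold lower, but its log2 ratio was -0.07 when no floor was set. Its relative Acvr2a read 2691 in the null-labelled pool against 1927 in the wild-type-labelled pool with 1437382_at, 1.40-fold higher, a log2 ratio of 0.48 that was 0.22 when no floor was set. The type I receptor gene Tgfbr1 had 0.58, just inside 1.5-fold, and 0.34 when no floor was set. Follistatin (Fst), which binds and blocks myostatin, had 0.42 from 1434458_at but -0.45 when no floor was set, and Smad3, which carries the signal to the nucleus, had -0.0064 but 0.24 when no floor was set. Gdf11, the closest relative of myostatin, and Fstl3 did not pass the floor in both pools.

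Around Eif4ebp1, translation genes differed little. Of 23 measured genes of the mTOR and cap-binding list, 0 were past 1.5-fold in either direction. Over all measured genes 3.38% were higher and 6.34% lower by that rule. The list median was 0.08 (0.03 to 0.10 under the alternatives). Eif4e, the factor that 4E-BP1 binds, was higher in 3 of 3 probe sets with a mean of 0.38 (0.23 to 0.59 under the alternatives). Eif4ebp2, the paralog of Eif4ebp1, had probe sets that disagreed. Its 1417084_at read 1443 in the null-labelled pool against 2203 in the wild-type-labelled pool and its 1455575_at read 857 in the null-labelled pool against 595 in the wild-type-labelled pool, for a mean of -0.16 over 4 probe sets, which was 0.07 from the brightest. Tsc2, which restrains mTOR, had 0.56 (0.52 to 0.59 under the alternatives), Mtor itself -0.40, and Ddit4l, an mTOR inhibitor of muscle, 0.44 (0.20 to 0.44).

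Around Gadd45a, the list of its relatives and of denervation and stress genes had 15 measured genes. Their median was 0.19 (0.03 to 0.21 under the alternatives), and 13 were above 0. Of all measured genes 55.7% were above 0, and of 20 muscle fibre markers 17 were. With no floor, 9 of 18 genes of the list were above 0, and 9383 of all 18193. By the 1.5-fold rule 1 was higher and 0 were lower, against 3.38% and 6.34% of all measured genes. Gadd45g had 0.19, and Gadd45b had 0.17 but -0.06 with the floor at the 50th percentile. Mapk14, the stress kinase p38-alpha, was the gene past the rule at 0.78 ± 0.76 (SD of 2 probe sets). Its bright probe set 1416703_at read 3546 in the null-labelled pool against 2983 in the wild-type-labelled pool, and its dim probe set 1416704_at read 551 in the null-labelled pool against 221 in the wild-type-labelled pool. From the bright probe set alone Mapk14 had 0.25, inside 1.5-fold, and when no floor was set it had -0.10. Ddit3, which encodes the stress factor CHOP, had 0.52 but -0.05 when no floor was set, Cdkn1a, the cell cycle inhibitor p21, -0.37, and Myog, the myogenic factor that rises after denervation, -0.19.

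Glucocorticoids are strong inducers of Fbxo32 and Trim63. Nr3c1, the glucocorticoid receptor, was higher in 3 of 3 measured probe sets with a mean of 0.57 (0.31 to 0.57 under the alternatives), and its brightest, 1460303_at, read 3561 in the null-labelled pool against 2474 in the wild-type-labelled pool. Its target Fkbp5 had 0.52, and 0.18 when no floor was set. The list as a whole had a median of 0.06 over 18 genes, which turned to -0.01 after loess. Beside 3.38% higher and 6.34% lower among all measured genes, 0 of the 18 were at least 1.5-fold higher and 2 lower. The lower genes were Hsd11b1, which regenerates active glucocorticoid in liver and fat, at -1.96, and the metallothionein gene Mt1 at -1.63, which was -0.97 when no floor was set. Adipocyte and hepatocyte markers were lower on the same array, and their part in these 2 values was not tested.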

How the data were processed

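The authors deposited 1 linear intensity value per probe set and array, made with MAS5 per the submitters' processing notes. Its version and the detection calls are not given in the sources used here. The RNA of 3 mice was pooled per array, per the labels' design text. Both deposited columns had a 2% trimmed mean of 500, and were set to the same one, which left the intensity unchanged. Groups came from the source label. Without 64 controls there were 45037 probe sets. The platform annotation gives 1 symbol for 34945 of them, several for 932 and none here for 9160. The floor was the 60th percentile of all non-control signals. Computation used Python 3.11.15, pandas 2.3.3, numpy 2.4.6 and statsmodels 0.14.6, and was tested on simulated data.

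The 10 genes and 16 gene lists were chosen with earlier results of these data known, so list counts and medians are descriptions without tests. Named are all 10 genes, fixed paralogs and partners, and list genes with the highest, lowest or 1.5-fold values. The Bnip3 promoter and its motif were added after the promoter table was seen. Also tried were the deposited values unscaled, quantile normalization, median centring, loess with a span of 0.3, floors at the 75th and 50th percentiles, no floor with a pseudocount of 50, the brightest or median probe set, and leaving out s- and x-type probe sets. Proteins were not used here.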

Additional observations from a re-analysis of the deposited data

How the results depend on the processing

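With 1 pooled array for each genotype, no alternative can speak to variation between mice. No paired analysis was possible because each genotype has 1 array and no test was run. Over the 10 alternatives, Fbxo32 and Fbxo30 stayed above 0 and Fbxo21 and Eif4ebp1 below 0. Gadd45a also stayed above 0, and Foxo3 and Trim63 below 0, although their values lay near 0. A kept sign therefore does not set a gene apart. The number of atrophy genes at least 1.5-fold lower was 1 in the text. It was 2 with the median log2 ratio set to 0, after loess, with the floor at the 75th percentile, with the brightest probe set and with the median of probe sets, where Eif4ebp1 joined Fbxo21. Of all 9696 measured genes, 707 were lower by that rule with the median set to 0 and 693 after loess. With the brightest probe set 675 were lower, and with the median of probe sets 624. The number of atrophy genes at least 1.5-fold higher was 0 in the text and 1, Fbxo32, with the brightest probe set and with the median of probe sets. Of all 9696 measured genes, 356 and 335 were higher under these settings, in that order. Mapk14 was -0.10 with no floor, because dim probe sets then entered its mean. The number of measured genes itself changed with the floor, so each count over all genes is given with its total. At least 1.5-fold higher were 328 of 9696 in the text and 250 of 9696 with median centring. With no floor 604 of 18193 were higher, and with the floor at the 75th percentile 187 of 6565. At least 1.5-fold lower were 615 of 9696 in the text, 1163 of 18193 with no floor and 332 of 6565 with the floor at the 75th percentile. Signals near the floor, such as those of Traf6 and the dimmest probe sets of Fbxo30 and Eif4ebp1, limit what can be read from them.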

Other observations

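Across the atrophy genes and the 9 pathway lists, 198 different genes were measured and 8 were past 1.5-fold, 2 higher (Cul3 and Mapk14) and 6 lower (Cat, Fbxo21, Gabarapl1, Hsd11b1, Mt1 and Smad7). Over all 9696 measured genes, 3.38% were higher and 6.34% lower by that rule. Of the 8, 6 had several measured probe sets, and in 0 of these 6 did every probe set pass 1.5-fold. In Fbxo21, Smad7 and Mapk14 the 2 probe sets were 1.43, 1.36 and 1.07 apart in log2 ratio, so each gene value is a mean of a large and a small difference. Cat and Gabarapl1 had probe sets within 0.23 of each other. Over all measured genes with several probe sets, 2.96% were at least 1.5-fold lower and 1.13% at least 1.5-fold higher in every one. These 8 genes were singled out by their values, and no cause of the disagreement between probe sets was tested.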
